A study of Homo sapiens with 9 samples.

Results

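The genes examined here are those whose array symbol begins as the symbols of collagens, laminin chains and integrin subunits do. The annotation table of the array platform gave 8 such genes among 14884 named genes, each with 1 probe set, so no choice between probe sets arose. They did not make up the 3 families that the rule aims at. Only COL26A1 encodes a collagen, 0 members encode a laminin chain and 0 encode an integrin alpha or beta subunit. COL4A2-AS1, COL18A1-AS1, COL18A1-AS2 and ITGB2-AS1 are noncoding RNAs named for the genes they lie antisense to. ITGB1BP1, ITGB1BP2 and ITGB3BP encode proteins named for binding an integrin beta chain. The other collagen, laminin and integrin genes were not analysed here, and the 8 members are called below by their own names.

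HEK293 is a human embryonic kidney cell line, and its RNA was measured on 9 arrays. The agonist group, 3 arrays, is labelled as cells overexpressing GPR39 and given 1 uM TC-G-1008, a synthetic agonist of the zinc-sensing receptor GPR39. The GPR39 group, 3 arrays, carries the label of GPR39 overexpression together with 0.03 mg/mL cumate, an inducer of engineered promoters. The mock group, 3 arrays, is labelled as naive control cells without cumate. The labels call the replicates biological, without saying what was separate about each, and a p-value reflects no more than the array-to-array spread. Whether agonist cells also received cumate and how long cells were exposed is not given in the labels. In GPR39 against mock the receptor label and cumate cannot be told apart, nor in agonist against GPR39 the agonist and a possible lack of cumate. In agonist against mock the receptor label and the agonist cannot be told apart, and whether cumate also differs is not given. The labels do not give the promoter of the introduced receptor or say whether the line is 1 clone.

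Array medians lay between 3.13 and 3.22 on the log2 scale. The single GPR39 probe set read between 2.45 and 2.65 in the agonist arrays, between 2.55 and 2.62 in the GPR39 arrays and between 2.43 and 2.55 in the mock arrays, too dim to be tested, so the arrays did not show the labelled overexpression. Where its probes lie is not given, and a probe set outside the introduced sequence checks nothing. Of 7 HEK293 markers listed 5 were measured and all 5 were tested, with a mean level from 6.52 to 6.63 in agonist, 6.53 to 6.61 in GPR39 and 6.80 to 7.01 in mock arrays. IRS4 lay between 9.37 and 10.58, KRT18 between 7.74 and 8.12 and VIM between 6.91 and 7.48. KRT8 lay between 4.18 and 4.82 and PAX2 between 3.50 and 4.43. IRS4 differed from mock by -0.85 in agonist and -1.03 in GPR39 cells (limma adjusted p = 0.00530 and 0.0162). In agonist against mock VIM differed by -0.46 and KRT18 by 0.29 (limma adjusted p = 0.00368 and 0.0158). No other difference of these HEK293 markers passed. The fibroblast genes DCN and LUM and the endothelial genes PECAM1 and EMCN were below 2.2 in every array, while THY1 (3.19 to 3.51), KDR (2.80 to 3.09) and VWF (2.54 to 3.06) were bright enough to be tested and passed in no comparison. Among the 4 measured leukocyte genes the mean level ran from 4.28 to 4.45 in agonist, 4.13 to 4.33 in GPR39 and 3.78 to 3.90 in mock arrays. CD68, a lysosomal protein also made outside leukocytes, was higher than in mock by 1.23 in agonist and by 0.90 in GPR39 cells (limma adjusted p = 0.000400 and 0.0124). TYROBP differed from mock by 0.68 ± 0.21 in agonist and 0.49 ± 0.21 in GPR39 cells and did not pass (limma adjusted p = 0.0719 and 0.334), with agonist and mock arrays not overlapping, and CD14 lay between 2.69 and 2.99. What part these differences play in the results was not tested. Mock replicate 1 stood apart from its group: on the second principal component, with 20.4% of the variance, it lay at 22.0, against -22.9 and -38.7 for the other mock arrays and 24.2 to 27.3 for the GPR39 arrays. Values of the members that involve mock arrays are therefore also given without it.

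Integrins are membrane receptors made of an alpha and a beta chain that tie matrix proteins such as collagen, laminin and fibronectin to the actin cytoskeleton. Their short beta tails bind talin and kindlin, which switch the receptor on, and further proteins that compete with these or signal from them. ITGB1BP1, also called ICAP-1, binds the tail of ITGB1 and holds the receptor in its inactive state. ITGB3BP was found as a partner of the ITGB3 tail and is also known as the centromere protein CENP-R and as a nuclear receptor coregulator. ITGB1BP2, or melusin, is a chaperone-like protein of heart and skeletal muscle. Antisense RNAs are transcribed from the strand opposite to a coding gene, and some change the output of that gene.

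ITGB3BP and ITGB1BP1 were the members that passed the test in at least 1 comparison, and the 250 bases before their most upstream start in RefSeq are shown because changes at these genes are the result that follows. The sequences are from build GRCh38.p14, minus strand, for ITGB3BP at chr1:63523226-63523475 and for ITGB1BP1 at chr2:9423570-9423819. Capitals mark matches, on either strand, to 1 of 4 motifs.
ITGB3BP: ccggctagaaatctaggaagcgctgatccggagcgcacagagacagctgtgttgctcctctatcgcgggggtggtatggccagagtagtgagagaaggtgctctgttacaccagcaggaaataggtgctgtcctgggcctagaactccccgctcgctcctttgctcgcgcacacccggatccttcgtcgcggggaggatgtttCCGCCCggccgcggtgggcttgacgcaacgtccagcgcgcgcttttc
ITGB1BP1: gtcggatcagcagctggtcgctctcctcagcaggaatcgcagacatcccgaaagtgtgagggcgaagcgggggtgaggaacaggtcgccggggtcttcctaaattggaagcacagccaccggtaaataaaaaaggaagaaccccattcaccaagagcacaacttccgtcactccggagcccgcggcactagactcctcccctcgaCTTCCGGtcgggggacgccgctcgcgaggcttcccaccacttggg
The motifs searched were TGANTCA for AP-1, TGACGTCA for CREB, CCGGAAG for ETS factors and GGGCGG for the GC box. ITGB3BP held 1 GC box, which 42.5% of 34943 windows of the same length also hold, and no match to the other 3. ITGB1BP1 held 1 ETS match, found in 8.48% of windows, and no match to the other 3. Neither window held TGANTCA or TGACGTCA, present in 6.59% and 1.63% of windows. No more than 1 motif matched in either window, so matches did not overlap. A match is a run of letters and was not tested as a binding site.

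ITGB3BP had the clearest change of the 8 members: it was lower in the agonist group. Its log2 signals were 5.02, 5.06 and 4.97 in the agonist arrays, against 5.33, 5.26 and 5.29 in the GPR39 arrays and 5.31, 5.46 and 5.34 in the mock arrays. All 3 agonist arrays lay below all 6 others, while the GPR39 and mock arrays overlapped. Against GPR39 cells ITGB3BP fell by 0.28 ± 0.07 on the log2 scale in agonist cells (SE; 95% interval -0.43 to -0.12), 1.21-fold lower, with a limma adjusted p of 0.0406. Against mock it fell by 0.35 ± 0.07 (interval -0.51 to -0.20), 1.28-fold lower, with a limma adjusted p of 0.00988. The GPR39 minus mock difference was -0.08 ± 0.07 and did not pass (limma adjusted p = 0.642), and without mock replicate 1 it was -0.11. The first 2 comparisons share the agonist arrays. In bulk RNA such as this, fewer cells that make a transcript and less of it per cell cannot be told apart.

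The fall of ITGB3BP against mock passed under all 17 alternatives, with limma adjusted p from 0.00460 to 0.0426, and without mock replicate 1 it was -0.39 with a limma adjusted p of 0.0149. The fall against GPR39 kept its direction under all 17 and passed under 6. It was lost when any 1 of the 3 GPR39 or 3 agonist arrays or mock replicate 3 was left out, with limma adjusted p between 0.0551 and 0.128. It was also lost without the filter on dim probe sets (0.0690), with centring on the 75th percentile (0.0517), with only the 6 arrays compared (0.0527) and with the replicate number as a block (0.0972, all limma adjusted p).

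EFCAB7, a gene for a protein with calcium-binding EF hands, starts 300 bases from ITGB3BP on the other strand, and in RefSeq the spans of the pair overlap. It was looked up for that reason after the data were examined. Its signals were 4.47, 4.85 and 4.58 in the agonist arrays, against 5.05, 4.96 and 5.18 in the GPR39 arrays and 5.27, 5.31 and 5.09 in the mock arrays. Here too all agonist arrays lay below all others. EFCAB7 was lower in the agonist group by 0.59 ± 0.12 log2 units against mock (limma adjusted p = 0.0112). The difference of the agonist group against GPR39 was -0.43 ± 0.12 and did not pass (limma adjusted p = 0.0584). The strand and exons that the probes of either gene read are not stated in the annotation used, so a shared signal was not tested.

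ITGB1BP1 was also lower in agonist cells than in mock cells. It read 4.89, 4.84 and 5.09 in the agonist arrays, against 5.18, 5.33 and 5.18 in the GPR39 arrays and 5.34, 5.40 and 5.18 in the mock arrays. The agonist arrays again lay below all others, but agonist replicate 3 came within 0.1 of the lowest GPR39 and mock arrays. Against mock ITGB1BP1 fell by 0.37 ± 0.10 (interval -0.58 to -0.15), 1.29-fold lower, with a limma adjusted p of 0.0369. Against GPR39 the difference was -0.29 ± 0.10 (interval -0.51 to -0.07) and did not pass, with a limma adjusted p of 0.111. GPR39 minus mock was -0.08 ± 0.10 and did not pass, and it was -0.06 without mock replicate 1. The call against mock was kept under 5 of 17 alternatives. Without mock replicate 1 the change was -0.35 with a limma adjusted p of 0.0824, and leaving out mock replicate 2, any GPR39 array, or agonist replicate 1 or 2 also ended the call (limma adjusted p from 0.0507 to 0.119). Quantile normalization (0.0932), centring (0.0906), no filter (0.0574), only the 6 arrays compared (0.0875) and the replicate block (0.0861) ended it as well.

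ITGB1BP2 was lowest in the GPR39 arrays and passed no test. Its signals were 3.05, 3.30 and 3.14 in the agonist arrays, against 2.91, 2.92 and 2.70 in the GPR39 arrays and 3.04, 3.05 and 3.30 in the mock arrays. The GPR39 arrays lay below all agonist and all mock arrays, and those last 2 groups overlapped. The log2 difference was 0.32 ± 0.11 for agonist minus GPR39 (limma adjusted p = 0.116) and -0.29 ± 0.11 for GPR39 minus mock (limma adjusted p = 0.275), comparisons that share the GPR39 arrays. For agonist minus mock it was 0.03 ± 0.11, with a 95% interval from -0.22 to 0.28. Without mock replicate 1 the GPR39 minus mock difference was -0.33, with a limma adjusted p of 0.202, and agonist minus mock was -0.01. All 9 values of this muscle gene lay within 0.7 of the 40th percentile of their array, which ran from 2.63 to 2.70.

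**Figure D1:**
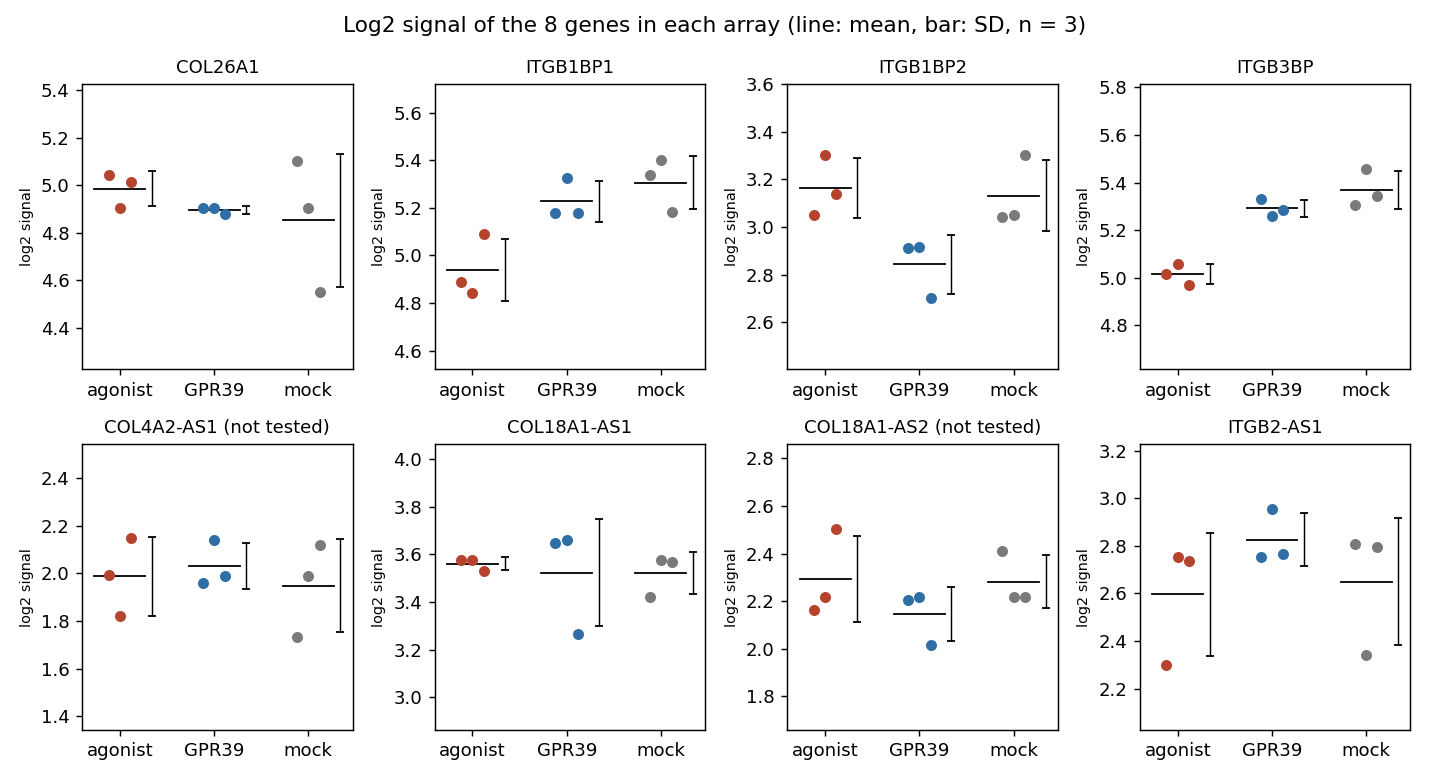
Log2 signal of each of the 8 genes in the 3 agonist, 3 GPR39 and 3 mock arrays, with a line at each group's mean and a bar of 1 SD beside it; every panel spans the same range of the log2 axis. The agonist points of ITGB3BP and ITGB1BP1 lie below all others, the GPR39 points of ITGB1BP2 lie below all others, and the groups of the other 5 genes overlap.

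COL26A1, the 1 collagen, encodes a secreted collagen that also carries an EMI domain. It read 5.04, 4.90 and 5.01 in the agonist arrays, against 4.90, 4.90 and 4.88 in the GPR39 arrays and 5.10, 4.90 and 4.55 in the mock arrays. The mock arrays spanned the values of both other groups. The log2 difference was 0.09 ± 0.13 for agonist minus GPR39, with a 95% interval from -0.21 to 0.39 (limma adjusted p = 0.728). It was 0.13 ± 0.13 for agonist minus mock (interval -0.16 to 0.43, limma adjusted p = 0.543) and 0.04 ± 0.13 for GPR39 minus mock (interval -0.25 to 0.34, limma adjusted p = 0.908). The mock spread came from replicates 1 and 3. Without mock replicate 1 the agonist minus mock difference was 0.26 and GPR39 minus mock 0.17, and without mock replicate 3 they were -0.02 and -0.11, none of them past the threshold.

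A feature of the deposited values touches COL26A1 and 5 other members. Agonist replicate 2, GPR39 replicates 1 and 2 and mock replicate 2 carry the identical value 4.90409 for COL26A1. COL18A1-AS2 has the value 2.21829 in 4 arrays and COL18A1-AS1 the value 3.57706 in 3 arrays, while COL4A2-AS1, ITGB1BP2 and ITGB2-AS1 have 1 value in 2 arrays each. ITGB3BP and ITGB1BP1 have no repeated value. Over all probe sets tested, 44.4% have at least 2 arrays at exactly the same value. Equal values in a group narrow its spread, as in the GPR39 arrays of COL26A1, whose SD was 0.016 against 0.28 in mock. What made the equal values was not tested.

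None of the antisense RNAs passed a test, and those other than COL18A1-AS1 lay below the median of their array in all 9 arrays. COL18A1-AS1 was above both the 40th percentile and the median in all 9 arrays. It read 3.58, 3.58 and 3.53 in the agonist arrays, against 3.65, 3.66 and 3.27 in the GPR39 arrays and 3.42, 3.58 and 3.57 in the mock arrays. Its log2 difference was 0.04 ± 0.11 for agonist minus GPR39, 0.04 ± 0.11 for agonist minus mock and 0.002 ± 0.11 for GPR39 minus mock, with 95% intervals inside -0.26 and 0.30. Without mock replicate 1 the last 2 were -0.01 and -0.05. Its host COL18A1 encodes the basement membrane collagen from which endostatin is cut, and was not analysed here.

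ITGB2-AS1 lies antisense to ITGB2, the beta chain of leukocyte integrins. It read 2.30, 2.75 and 2.74 in the agonist arrays, against 2.75, 2.96 and 2.77 in the GPR39 arrays and 2.81, 2.34 and 2.80 in the mock arrays. It exceeded the 40th percentile in 7 of 9 arrays, with agonist replicate 1 and mock replicate 2 below it. The log2 difference was -0.23 ± 0.17 for agonist minus GPR39, -0.05 ± 0.17 for agonist minus mock and 0.18 ± 0.17 for GPR39 minus mock, and none passed (limma adjusted p from 0.460 to 0.869). Without mock replicate 1 the last 2 differences were 0.03 and 0.26.

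COL4A2-AS1 and COL18A1-AS2 did not exceed the 40th percentile in any array and were not tested. COL4A2-AS1 read 1.99, 1.82 and 2.15 in the agonist arrays, against 1.96, 2.14 and 1.99 in the GPR39 arrays and 1.73, 1.99 and 2.12 in the mock arrays. COL18A1-AS2 read 2.16, 2.22 and 2.50 in the agonist arrays, against 2.21, 2.22 and 2.02 in the GPR39 arrays and 2.41, 2.22 and 2.22 in the mock arrays. The groups overlapped for both. At these levels no order between the groups can be read.

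Counted over the 6 members tested, agonist against GPR39 had 1 lower (ITGB3BP) and 0 higher, where 9.06% of all 33376 probe sets tested passed in either direction and 5.95% were lower, and 13.3% of 11915 named genes passed. Agonist against mock had 2 lower (ITGB3BP and ITGB1BP1) and 0 higher, where 15.0% of probe sets passed, 8.94% lower, and 21.8% of named genes passed. GPR39 against mock had 0 in limma, and 0 with eBayes using trend and robust settings. In limma 1.17% of probe sets and 1.64% of named genes passed there. At an unadjusted limma p under 0.05 there was 1, ITGB1BP2, where 14.8% of all probe sets tested also lay under it. With 6 genes these counts are too small to set against those shares. The median log2 change of the 6 was -0.10, -0.01 and -0.04 in these comparisons. Over the named genes tested the median was -0.03, -0.01 and 0.02, and over all probe sets tested 0.01, 0.02 and 0.01. Arrays of the groups did not overlap for 3, 2 and 1 of the 6, where 29.9%, 31.0% and 20.7% of all probe sets tested did not overlap. In simulated arrays with the real means and spreads, 200 of 33376 probe sets were changed. Of 1.25-fold changes 4.0%, 3.4% and 3.4% were recovered, and of 1.5-fold changes 36.8%, 32.8% and 36.0%. In the real data 3025, 5022 and 391 probe sets passed, and with more changed probe sets the adjustment is less strict. The simulated shares therefore do not say how many changes of these sizes could be detected in the real comparisons.

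**Figure D2:**
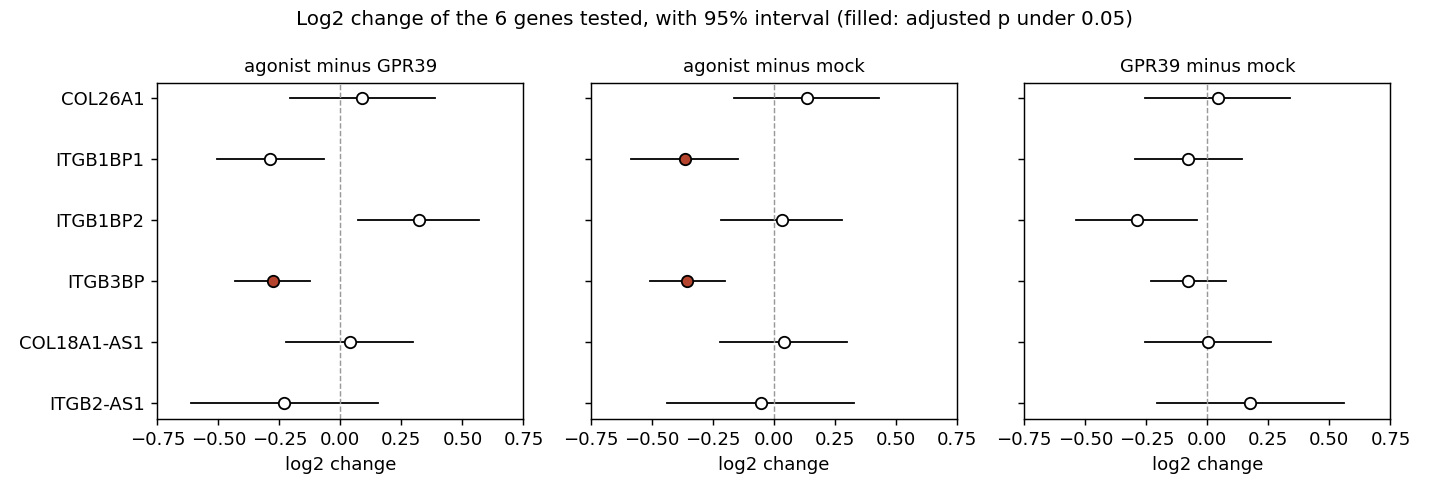
Log2 change of the 6 genes tested in each comparison (points) with its 95% interval (lines); filled points passed an adjusted p of 0.05. Only ITGB3BP is filled for agonist minus GPR39, ITGB3BP and ITGB1BP1 are filled for agonist minus mock, and no point is filled for GPR39 minus mock.

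The proteins that act with collagens, laminins and integrins were followed in a list of 142 genes, of which 105 have a named probe set and 102 were tested. The list was chosen with earlier results of these data known, so its shares set beside those of named genes are not a test. In agonist against GPR39, 5 rose and 13 fell (17.6%, against 13.3% of all named genes tested), with a median log2 change of -0.06. Of the list's calls there 27.8% were upward, beside 34.4% of the calls over all probe sets. In agonist against mock 7 rose and 18 fell (24.5%, against 21.8% of named genes), with a median of -0.07. By scaling, 28.0% of the list's calls in that comparison were upward as deposited, 41.7% after quantile normalization and 47.8% after centring on the 75th percentile. Over all probe sets these shares were 40.6%, 43.8% and 56.2%. In GPR39 against mock 6 rose and 2 fell (7.84%, against 1.64% of named genes), with a median of -0.0004. Of these calls 7, 16 and 5 held under all 17 alternatives. The median log2 change over all named genes tested was -0.03, -0.01 and 0.02 in the same order of comparisons.

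Among integrin adaptors and focal adhesion genes, 7 of 35 fell and 0 rose in agonist against GPR39 (20.0%, where 13.3% of named genes passed in either direction). Over all probe sets most calls in that comparison were also downward, with 34.4% upward. In agonist against mock 7 of 35 fell, ELMO1, a regulator of Rac, by 0.55 ± 0.13 among them, and 1 rose, the kinase SRC by 0.45 ± 0.10 (22.9%, where 21.8% of named genes passed; limma adjusted p = 0.0278 and 0.0166), and these 2 calls held under 11 and 14 of 17 alternatives. In limma 0 of 35 passed in GPR39 against mock, where 1.64% of named genes passed. The same 35 genes had a median of 0.03 there. FERMT1, a kindlin that activates integrins, read 5.41, 5.45 and 5.20 in the agonist arrays, against 6.08, 5.83 and 6.19 in the GPR39 arrays, and fell by 0.69 ± 0.12 (limma adjusted p = 0.0108). Its difference was -0.45 ± 0.12 in agonist against mock (limma adjusted p = 0.0363), a call kept under 5 of 17 alternatives, and 0.23 ± 0.12 in GPR39 against mock, which did not pass (limma adjusted p = 0.397). PXN, the focal adhesion scaffold paxillin, fell by 0.47 ± 0.08 in agonist against GPR39 (limma adjusted p = 0.0109). PXN differed by -0.14 ± 0.08 in agonist against mock and 0.33 ± 0.08 in GPR39 against mock, and neither passed (limma adjusted p = 0.306 and 0.113). The calls of both genes in agonist against GPR39 held under all 17 alternatives, while those of TES, DOCK1, ZYX, TGFB1I1 and GIT2 in that comparison were each lost under at least 3. In agonist against mock DOCK1 and GIT2 fell by 0.53 and 0.50 (limma adjusted p = 0.00165 and 0.00687). These were the only adaptor calls against mock that held under all 17 alternatives. TLN1, the talin whose binding ITGB1BP1 opposes, had log2 differences of -0.01, -0.08 and -0.08 in agonist against GPR39, agonist against mock and GPR39 against mock, and none passed.

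The larger changes lay among matrix glycoproteins and other matrix receptors. CD44, a hyaluronan receptor, read 6.73, 6.83 and 6.71 in the agonist arrays, against 5.95, 5.97 and 5.95 in the GPR39 arrays and 4.09, 4.35 and 4.19 in the mock arrays. THBS1, the matrix protein thrombospondin-1, read 6.68, 6.38 and 6.43 in the agonist arrays, against 5.65, 5.67 and 5.66 in the GPR39 arrays and 4.22, 4.41 and 3.98 in the mock arrays. The groups of both genes did not overlap, and both rose in all 3 comparisons and under all 17 alternatives, by 0.80 and 0.84 in agonist against GPR39, by 2.55 and 2.29 in agonist against mock and by 1.75 and 1.46 in GPR39 against mock. TNC, the matrix protein tenascin-C, read 7.81, 7.81 and 7.65 in the agonist arrays, against 6.67, 6.68 and 6.68 in the GPR39 arrays and 6.07, 6.14 and 6.22 in the mock arrays. It was 1.08 ± 0.07 higher in agonist than in GPR39 cells (limma adjusted p = 0.000163). SDC4, a heparan sulfate proteoglycan that acts beside integrins, stood 1.39 ± 0.14 above mock in agonist cells (limma adjusted p = 0.000639). Its agonist minus GPR39 difference was 0.53 ± 0.14 and did not pass (limma adjusted p = 0.0589). GPC3, a membrane-anchored proteoglycan, fell by 0.97 ± 0.09 in agonist and by 0.90 ± 0.09 in GPR39 cells, each against mock (limma adjusted p = 0.000331 and 0.00385). NID1, which links laminin to collagen IV, and the microfibril gene FBN1 fell by 0.60 ± 0.10 and 0.78 ± 0.14 in agonist against mock (limma adjusted p = 0.00576 and 0.00763). NID1 and FBN1 differed by -0.13 and -0.06 in agonist against GPR39 (limma adjusted p = 0.475 and 0.832) and by -0.46 and -0.72 in GPR39 against mock (0.0841 and 0.0605), and none of these passed. Among 16 collagen-modifying genes, P3H2, a collagen prolyl hydroxylase, was higher by 0.75 ± 0.12 and CRTAP, a partner of such enzymes, lower by 0.45 ± 0.07 in agonist against mock (limma adjusted p = 0.00561 and 0.00435). P3H2 differed by 0.27 in agonist against GPR39 and 0.47 in GPR39 against mock, and neither passed (limma adjusted p = 0.241 and 0.137). In agonist against GPR39, FN1 and FREM2 were higher by 0.50 and 0.31, while HMMR, NTN4, SV2A, CD47 and EFEMP1 fell by 0.71, 0.61, 0.59, 0.54 and 0.46. Of these 7 calls those of HMMR and EFEMP1 held under all 17 alternatives. In agonist against mock FN1 differed by 0.06, CD47 by -0.21 and EFEMP1 by 0.26, and none passed (limma adjusted p = 0.790, 0.223 and 0.0579). FREM2 and SV2A were lower there by 0.42 each (limma adjusted p = 0.00500 and 0.0481), calls kept under all 17 and under 4 of 17 alternatives. The GPR39 minus mock difference of FN1 was -0.45 and did not pass (limma adjusted p = 0.146). In agonist against mock, LOX was higher by 0.59, and HMMR, GPC4, NTN4 and FRAS1 fell by 0.80, 0.74, 0.73 and 0.56; those of LOX and FRAS1 were kept under 14 and 6 of 17 and the other 3 under all. In GPR39 against mock, LOX, SDC4, EFEMP1 and TNC were higher by 0.88, 0.86, 0.71 and 0.54 and FREM2 fell by 0.74; EFEMP1 and FREM2 kept their calls under all 17, and LOX, SDC4 and TNC under 10, 7 and 12. Without mock replicate 1 the count of listed genes in GPR39 against mock was 13, with 7 lower and 6 higher. The count over all 33376 probe sets tested moved as well, from 391 (141 lower, 250 higher) to 1323 (907 lower, 416 higher).

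**Figure D3:**
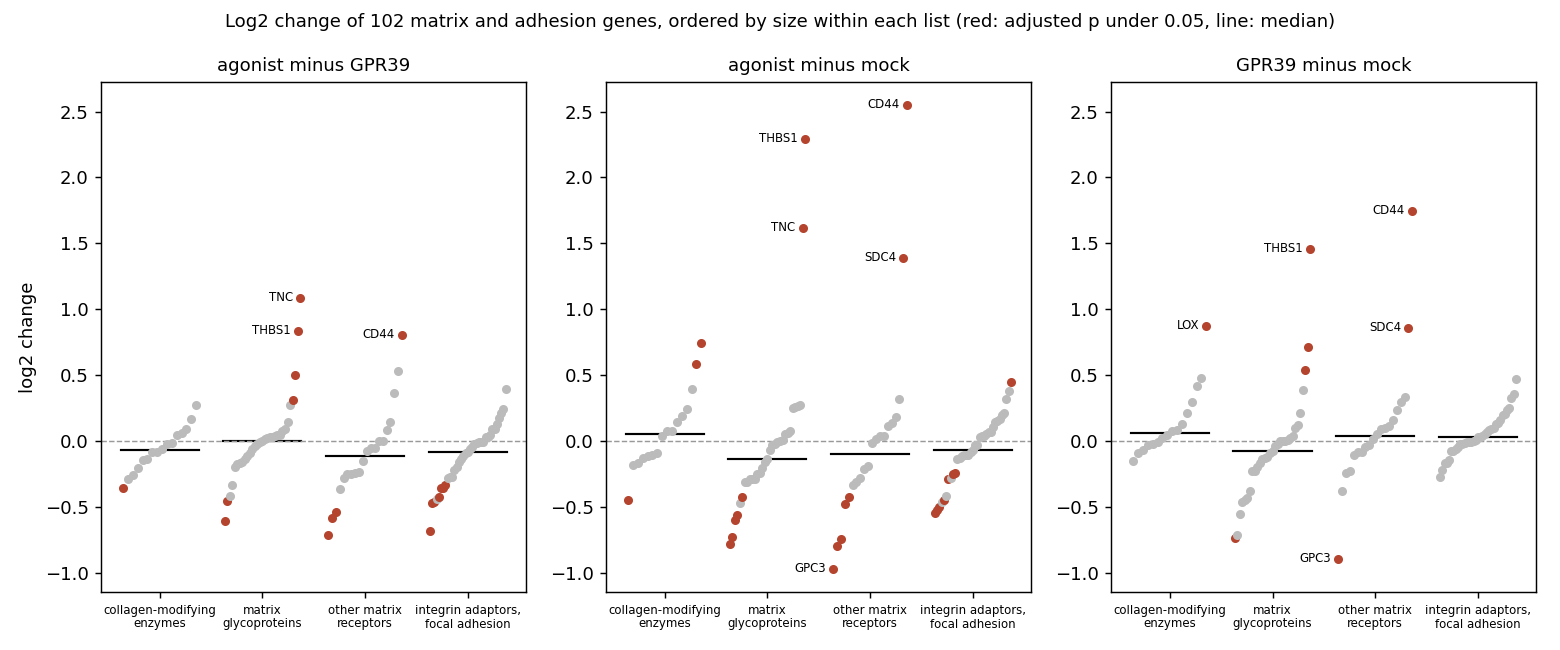
Log2 change of the 102 tested matrix and adhesion genes in each comparison, ordered by size within 4 lists, with red points past an adjusted p of 0.05 and a line at each list's median. Most red points lie below 0 among the adaptors in both agonist comparisons, and in agonist minus mock the highest points are CD44, THBS1, TNC and SDC4.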

How the data were processed

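Total RNA was biotin-labelled and hybridised to single-colour Affymetrix arrays, per the labels' protocols. The authors deposited log2 signals per probe set, a unit judged from the values. The submitters' processing notes name MAS5, with no role or version. Steps of normalization were not given in sources used here. Of 53617 probe sets, 16098 have 1 gene symbol in the platform annotation, 0 several and 37519 none. All columns were mapped to samples by name.

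A filter kept the 33376 probe sets that exceeded the array's 40th percentile on 3 or more of the 9 arrays, which were fitted together in limma 3.58.1 (R 4.3.3; lmFit, eBayes), two-sided, with Benjamini-Hochberg adjustment over all of them and a threshold of 0.05. No pseudocount was added. Errors after changes are SEs of that fit. The scripts were tested on simulated data in 10 draws of 200 changed probe sets. An exact permutation test of 3 against 3 arrays was not used, because it cannot pass.

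The members and the matrix and adhesion list were chosen with earlier results of these data known. Members named in full were all 8. From the list, genes past the threshold were named, up to 8 per direction and comparison by size, and TLN1, CRTAP, TES, DOCK1, ZYX and GIT2 were added after their values were seen. Promoters are from RefSeq, which held windows for 7 of 8 members. Alternatives were quantile normalization, centring, other filters, an offset of 16, other eBayes settings, the 2 groups alone, a replicate block and leaving out each array. Same-numbered replicates correlated between -0.10 and 0.06 in their deviations, so the numbers do not pair the samples. Precision is limited by the number of arrays.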

Additional observations from a re-analysis of the deposited data

How the results depend on the processing

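No member changed direction past the threshold under any alternative: of 297 recomputed changes 274 stayed on their side of it and 23 no longer passed. Every member has 1 probe set, so averaging probe sets could not be run as a separate setting. In agonist against GPR39 the count of members was 1, and 0 with centring, with no filter, with the replicate block and with only the 6 arrays compared. In agonist against mock it was 2, and 1 with quantile normalization, with centring, with no filter, with the replicate block and with only the 6 arrays. Leaving out 1 array gave 0 to 1, 1 to 2 and, in GPR39 against mock, 0 to 0 members. The list of 142 genes gave 8 to 19, 18 to 23 and 5 to 13 on leaving out 1 array in the same 3 comparisons, and with the replicate block 10 in agonist against GPR39 and 5 in GPR39 against mock.

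Over all probe sets, GPR39 against mock gave 391, and 637 with the stricter filter, 765 with the offset, 663 with trend and robust settings, 150 with the replicate block and 190 with only the 6 arrays. Agonist against GPR39 gave 3025, and 1819 with the block. Agonist against mock gave 5022, and 3133 with only the 6 arrays. Leaving out 1 array gave 108 to 1323, 1509 to 3119 and 3493 to 4947 in these 3 comparisons, the highest of the first without mock replicate 1, where 416 were higher and 907 lower (31.4% upward, against 63.9% with all arrays). The share of upward calls moved by centring to 74.7% against 63.9% as deposited in GPR39 against mock, and to 56.2% against 40.6% in agonist against mock. The causes of these shifts were not tested.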
